A study of Mus musculus with 6 samples.

Results

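The genes described here encode the receptors through which bone marrow cells sense the colony-stimulating factors, interleukin 3, interleukin 4 and interleukin 13, together with the ligands CSF-1 and G-CSF. They are 10 genes chosen by symbol, of 36706 genes in the deposited tables: Csf2ra, Csf2rb, Csf2rb2, Il3ra, Csf1r, Csf3r, Il4ra and Il13ra1 for receptor chains, and Csf1 and Csf3 for ligands. RNA was sequenced from wild-type mouse dendritic cells grown from bone marrow. In 3 libraries the cells had received 4-octyl itaconate (4-OI), an ester of the macrophage metabolite itaconate that enters cells, together with the cytokine interferon gamma (IFN-γ). In the other 3 they had received IFN-γ alone. All 6 cultures held GM-CSF at 20 ng/mL and had their medium changed on day 3 and day 5, so neither group lacks IFN-γ or GM-CSF and no library shows the cells before either was added. The labels give no strain, age or sex of the mice and no dose or time for IFN-γ or 4-OI. The titles read BMDMs, while the other labels say dendritic cells.

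GM-CSF binds a receptor made of a private α chain, encoded by Csf2ra, and the common β chain, encoded by Csf2rb, which IL-3 and IL-5 receptors share. The β chain carries the kinase JAK2, which phosphorylates STAT5, and STAT5 switches on genes such as Cish and Socs2 that feed back on the receptor. The mouse has a second β chain, encoded by Csf2rb2, that serves the IL-3 receptor together with the α chain encoded by Il3ra. CSF1R is the tyrosine kinase receptor of CSF-1 and IL-34 and is the main growth and survival receptor of macrophages, while the receptor encoded by Csf3r answers G-CSF, the granulocyte factor. The IL-4 receptor α chain pairs with the common γ chain for IL-4, or with the IL-13 receptor α1 chain for IL-4 and IL-13, and signals through STAT6. In marrow cultures GM-CSF drives myeloid precursors towards cells with dendritic and macrophage features.

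Of the 10 genes, 6 fell and 2 rose with 4-OI, and Csf2ra and Il3ra did not pass the threshold. The threshold was an adjusted p of 0.05 by edgeR's quasi-likelihood test over all 14011 genes tested, of which 48.1% passed, 22.7% as higher and 25.4% as lower. The 8 of 10 are read against that share. The 2 genes of the granulocyte factor fell most, Csf3 by 2.67-fold and its receptor Csf3r by 2.34-fold. Both β chains, Il4ra and Il13ra1 fell by 1.19-fold to 1.39-fold, and Csf1 and Csf1r rose by 1.45-fold and 1.25-fold. The median log2 fold change of the 10 was -0.29, and that of all genes tested was -0.01. Levels are read counts scaled to a common library total with TMM factors (CPM) unless another unit is named. The groups did not overlap in any of the 10 genes, 4 of them higher with 4-OI and 6 lower, while of all genes tested 59.5% did not overlap, 28.9% as higher and 30.6% as lower.

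**Figure D1:**
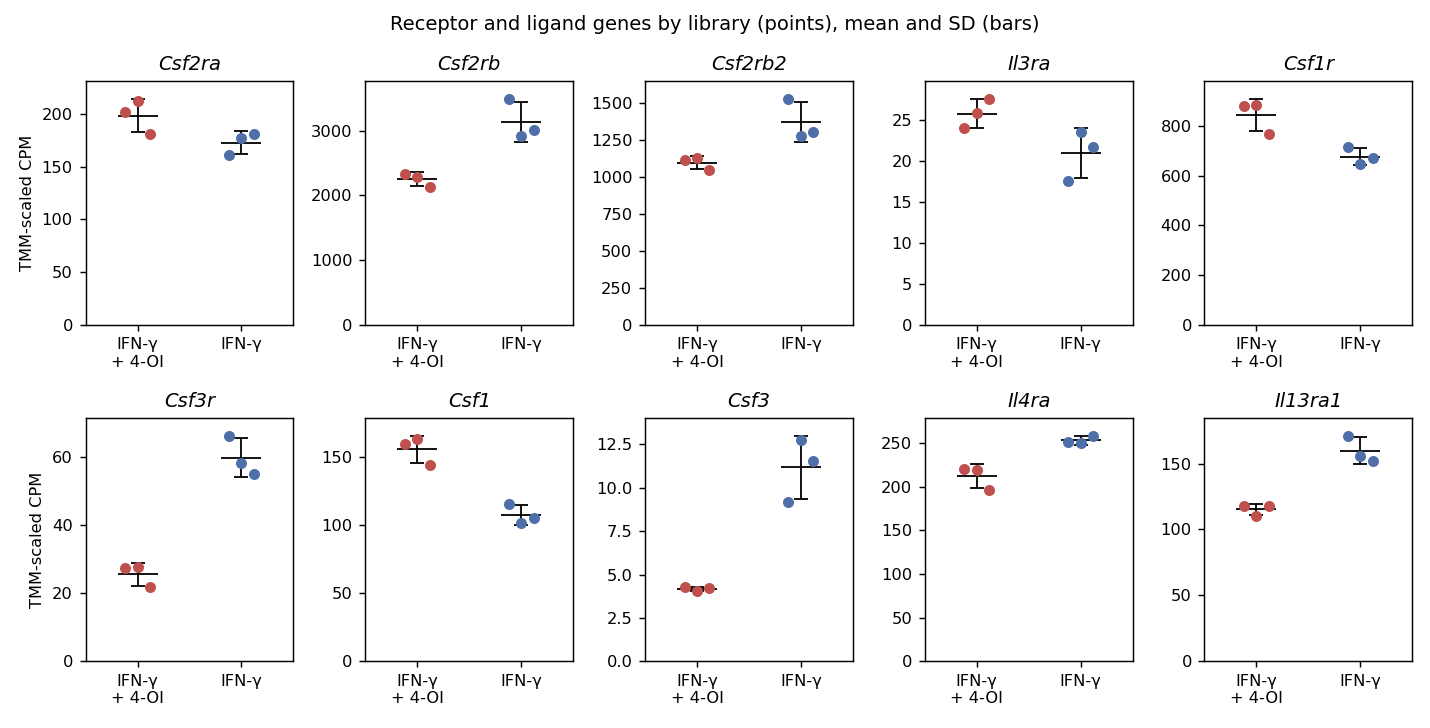
TMM-scaled CPM of the 10 genes in each library, IFN-γ with 4-OI on the left and IFN-γ alone on the right; points are libraries, bars the mean and SD (n = 3). Csf3 stood at 4.05 to 4.29 CPM with 4-OI and at 9.18 to 12.8 CPM without it, while in Csf2ra the lowest library with 4-OI and the highest without it nearly met, at 182 and 181 CPM.

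The libraries held 19656368 to 29244717 counts. IFN-γ replicate 1 and 4-OI replicate 3 lay apart from the other libraries of their groups on the second principal component, which held 10.7% of the variance. Without both of them 9 of the 10 genes passed, 3 as higher and 6 as lower, and 9296 of all genes did. Of the markers of conventional dendritic cells, Cd74 stood at 2407 to 3281 CPM, H2-Ab1 at 845 to 1457 CPM and Zbtb46, a defining factor, at 10.5 to 16.0 CPM. Xcr1 stayed under 1 CPM and Cd209a had 2 counts over the libraries with 4-OI and 5 over those without. Clec9a was higher with 4-OI, at 33.7 to 38.0 CPM against 8.42 to 10.2 CPM without it. Its log2 fold change was 1.90 (adjusted p from edgeR = 7.9e-06). Of 12 tested markers of these cells 9 fell and 1, Clec9a, rose, against 25.4% and 22.7% of all genes tested. The list had a summed level of 5227 to 6026 CPM with 4-OI and 6669 to 7974 CPM without it. Most of that level was Cd74, which did not pass, H2-Aa and H2-Ab1, at means of 2667, 1364 and 893 CPM with 4-OI. Without 4-OI these means were 3009, 2034 and 1305 CPM. The macrophage marker Adgre1 stood at 848 to 1343 CPM. In bulk RNA, fewer cells of a type and less RNA per cell cannot be told apart. No label says that replicates came from separate mice or cultures, and the spread behind each p-value may be technical.

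Scaling mattered for the small changes. With libraries scaled by total counts alone, the median of all genes tested moved to -0.27 on the log2 scale, and 7171 genes passed, 1719 as higher and 5452 as lower, against 3181 and 3555 with TMM factors. Of the 10 genes 6 then passed as lower and none as higher. The 6 that fell were the same 6 under both scalings. For Csf1 the log2 fold change was 0.28 (adjusted p from edgeR = 0.0732) and for Csf1r 0.062 (adjusted p from edgeR = 0.673), and the direction of Csf2ra turned to -0.055 (adjusted p from edgeR = 0.692).

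**Figure D2:**
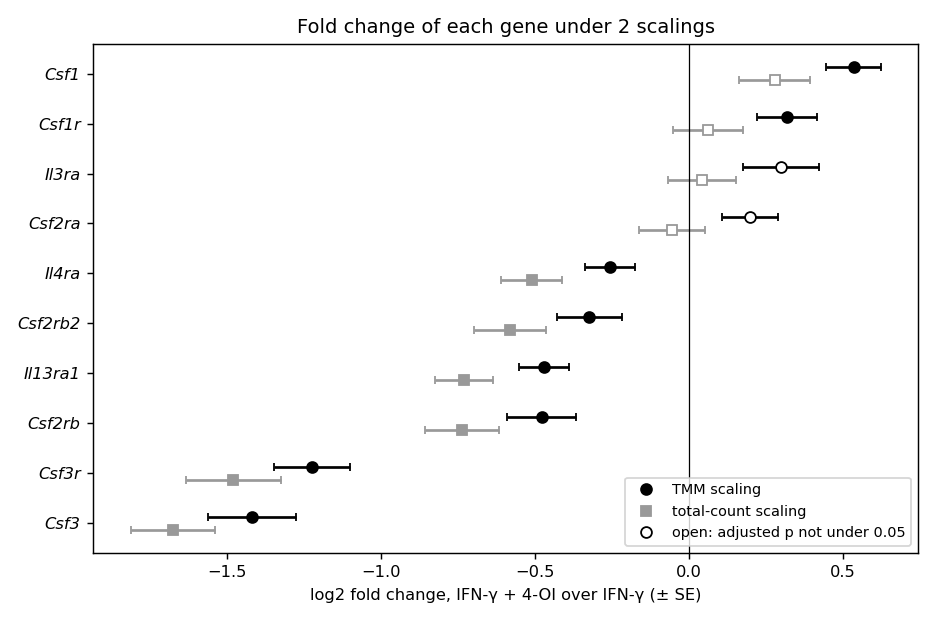
Log2 fold change of each gene, IFN-γ with 4-OI over IFN-γ, with its SE, under TMM scaling (black circles) and total-count scaling (grey squares); filled symbols have an adjusted p under 0.05. Csf3 (-1.42) and Csf3r (-1.22) lie far to the left under both scalings, and none of the 4 genes at the top passes under total-count scaling.

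The GM-CSF receptor is the receptor these cultures depend on. Csf2rb, the common β chain, had 2336, 2287 and 2131 CPM with 4-OI, against 3490.0, 2915 and 3008 CPM with IFN-γ alone. Every library with 4-OI lay below every library without it, and IFN-γ replicate 1 was the highest of all. Csf2rb fell by 1.39-fold (log2 fold change -0.48 ± 0.11 SE; adjusted p from edgeR = 0.00842). The gene spans chromosome 15, 78210000 to 78235201, on the plus strand, with 15 exon blocks in the deposited annotation. Here and for the other genes positions are as deposited, and they differ from those of mm10. Csf2rb was an abundant transcript, at 820 ± 109 TPM with 4-OI and 1500.3 ± 328 TPM without it (SD, n = 3 each), and ranked 142 of the 36706 genes by mean TPM over the 6 libraries. These TPM values carry no TMM factors, so their gap between groups is not the fold change given above.

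Csf2ra, the α chain that gives the receptor its specificity for GM-CSF, had 202, 212 and 182 CPM with 4-OI, against 161, 177 and 181 CPM with IFN-γ alone. The log2 fold change was 0.20 ± 0.09 (SE; adjusted p from edgeR = 0.109), which did not pass. With both libraries that lay apart left out it was 0.21 (adjusted p from edgeR = 7.8e-05), and without single libraries it was 0.14 to 0.26. Csf2ra spans chromosome 19, 61205629 to 61221141, on the minus strand.

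Because α and β chains are measured in the same library, their ratio does not depend on how libraries are scaled. The TPM of Csf2rb was 32.9, 30.6 and 33.4 times that of Csf2ra with 4-OI, against 61.6, 46.8 and 47.2 times with IFN-γ alone. The groups did not overlap, and the log2 ratio was lower by a difference of -0.67 (exact permutation test, two-sided, p = 0.10, the smallest p that 3 against 3 can give; Benjamini-Hochberg p = 0.167 over the 5 ratios compared). Of the other 4 ratios, given with their genes, Csf2rb2 to Csf2rb and Il3ra to Csf2rb2 had the same adjusted value, Il13ra1 to Il4ra had 0.25 and Csf2ra to Csf1r had 0.40. The size of the ratio itself rests on the gene model: the deposited length of Csf2ra is 13857 bases, while its coding transcript in GENCODE has 1849 bases. With GENCODE transcript lengths the ratio was 4.06 to 4.43 with 4-OI and 6.22 to 8.18 without it. The difference between groups is the same on either length.

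Csf2rb2, the β chain of the mouse IL-3 receptor, had 1116, 1128 and 1045 CPM with 4-OI, against 1528.5, 1279 and 1308 CPM with IFN-γ alone. The groups did not overlap, and again IFN-γ replicate 1 was highest. Csf2rb2 fell by 1.25-fold (log2 fold change -0.32 ± 0.10 SE; adjusted p from edgeR = 0.0342). The call was lost without IFN-γ replicate 3 (adjusted p from edgeR = 0.0756), without 4-OI replicate 1 (adjusted p from edgeR = 0.0988), replicate 2 (adjusted p from edgeR = 0.0947) or replicate 3 (adjusted p from edgeR = 0.104), and with no filter on low counts (adjusted p from edgeR = 0.0742). With both libraries that lay apart left out, the log2 fold change was -0.20. Next to Csf2rb, the gene spans chromosome 15, 78166707 to 78189921, on the minus strand.

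The 2 β chain genes are close copies, which bears on how reads were shared between them. Over 2628 aligned coding positions of their longest GENCODE coding sequences (GRCm38), 95.2% were identical. The coding sequences open almost alike, as the first 120 coding bases show, where capitals mark the 4 differences.
Csf2rb: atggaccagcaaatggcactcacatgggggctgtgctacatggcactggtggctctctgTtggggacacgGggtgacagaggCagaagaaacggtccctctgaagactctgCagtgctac
Csf2rb2: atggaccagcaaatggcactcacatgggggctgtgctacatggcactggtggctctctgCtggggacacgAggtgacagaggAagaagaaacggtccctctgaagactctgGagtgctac
They part most within a stretch that starts at coding base 309 of Csf2rb and base 312 of Csf2rb2, where 22 of 120 aligned bases differ.
Csf2rb: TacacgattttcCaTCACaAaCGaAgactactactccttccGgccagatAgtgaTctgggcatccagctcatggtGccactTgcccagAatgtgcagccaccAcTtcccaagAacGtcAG
Csf2rb2: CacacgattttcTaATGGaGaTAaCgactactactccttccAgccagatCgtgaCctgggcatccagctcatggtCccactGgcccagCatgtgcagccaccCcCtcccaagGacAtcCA
The first pair spans chr15:78335207-78336379 (plus strand) and chr15:78297071-78298229 (minus strand), and the second chr15:78338898-78340471 (plus strand) and chr15:78292838-78294433 (minus strand), all on GRCm38 and spliced across introns. Of all 75-base windows of the Csf2rb transcript, 10.7% were found unchanged in Csf2rb2 transcripts, and 3.47% of 150-base windows. No source used here gives the read length or the treatment of reads that fit both genes, so the split between the genes is uncertain. With both genes' counts summed, the pair fell with a log2 fold change of -0.43 (adjusted p from edgeR = 0.0149). The TPM ratio of Csf2rb2 to Csf2rb was 0.492, 0.507 and 0.504 with 4-OI, against 0.450, 0.451 and 0.447 with IFN-γ alone. These values barely varied within a group, and the groups did not overlap (difference of log2 ratios 0.16; exact permutation test, two-sided, p = 0.10).

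Il3ra, the IL-3 receptor α chain, had 23.9, 25.8 and 27.5 CPM with 4-OI, against 17.5, 23.5 and 21.7 CPM with IFN-γ alone. The lowest value with 4-OI lay just above the highest without it, and the log2 fold change was 0.30 ± 0.12 (SE; adjusted p from edgeR = 0.0780). Without IFN-γ replicate 2 it was 0.40 and passed (adjusted p from edgeR = 0.0453), with both libraries that lay apart left out it was 0.14, and it passed with the replicate number as a block (log2 fold change 0.30; adjusted p from edgeR = 0.0227), though the numbers were not found to pair libraries. Its TPM was 0.0333, 0.0356 and 0.0409 of that of Csf2rb2 with 4-OI, against 0.0178, 0.0285 and 0.0258 with IFN-γ alone (difference of log2 ratios 0.63; exact permutation test, two-sided, p = 0.10). With both libraries that lay apart left out, that difference was 0.34. On chromosome 14 the deposited span of Il3ra is 8114270 to 8123851, minus strand. Mast cells and basophils, which respond to IL-3, can grow in marrow cultures. All 6 tested markers of 11 listed for them fell with 4-OI, against 25.4% of all genes tested. The list had a summed level of 104 to 112 CPM with 4-OI and 341 to 372 CPM without it. Cma1 and Mcpt4 had 1 count in all between them, and the part of these cells in the receptor values was not tested. Of eosinophil markers 5 of 7 tested fell and 1 rose, against 25.4% and 22.7% of all genes tested. Their list had a summed level of 63.0 to 72.3 CPM with 4-OI and 169 to 227 CPM without it. Prg2 made up most of it, at a mean of 52.9 CPM with 4-OI and 154.5 CPM without it. Epx, Prg3 and Ccr3 had means under 1 CPM in both groups. Of monocyte markers 6 of 9 fell and none rose, against 25.4% and 22.7% of all genes tested. The monocyte list had a summed level of 5804 to 6875 CPM with 4-OI and 7051 to 7935 CPM without it. Most of that level was Chil3, which did not pass, at 5239 ± 514 CPM with 4-OI and 5085 ± 575 CPM without it (SD, n = 3 each). The median of the monocyte list was -1.21 on the log2 scale. Ccr2, a chemokine receptor, fell by 7.92-fold and F13a1, a coagulation factor chain, by 4.12-fold. Vcan and Fn1, with log2 fold changes of -0.29 and -0.64, did not pass. The part of both cell types in the β chain values was not tested either.

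**Figure D3:**
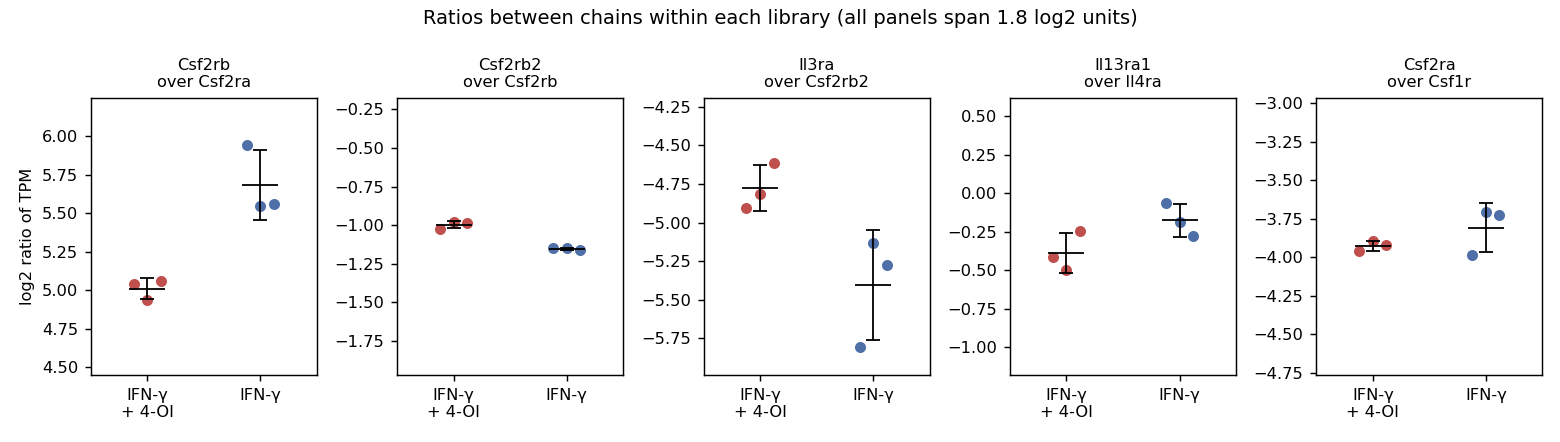
Log2 ratio of TPM between receptor chains within each library, IFN-γ with 4-OI on the left and IFN-γ alone on the right; points are libraries, bars the mean and SD (n = 3). Csf2rb over Csf2ra stood at 4.94 to 5.06 with 4-OI and at 5.55 to 5.95 without it, and Csf2rb2 over Csf2rb at -1.02 to -0.98 with 4-OI and near -1.15 without it.

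The receptor genes' upstream sequences were read from RefSeq promoters (GRCm38.p6), which held 7 of the 10 genes: all but Csf2rb, Csf1r and Csf3. They were searched on both strands, in the 250 bases before the start, for 6 motifs: the STAT palindrome TTCNNNGAA, the same palindrome with 4 bases between TTC and GAA, the PU.1 core GAGGAAG, an IRF element of 2 GAAA repeats with 2 bases between them, the core of the NRF2 element TGACNNNGC and the C/EBP motif TTGCNNAA. The PU.1 core, the binding letters of the factor that sets myeloid identity, was in Csf2ra, Csf2rb2 and Csf3r, and in 10.6% of 32851 promoters. TTCNNNGAA, which STAT5 dimers bind, was in Csf2rb2 and in 7.02% of all promoters. TGACNNNGC was in Il4ra (10.2% of all promoters) and TTGCNNAA in Il3ra (9.56% of all promoters). The wider STAT palindrome and the IRF element, in 5.85% and 2.98% of all promoters, were in none of the 7. The 3 promoters with a PU.1 core are shown with motif letters in capitals; in Csf2ra 2 cores overlap, and in Csf2rb2 the core stands on the opposite strand and the STAT palindrome nearer the start.
Csf2ra, chr19:61228419-61228668, minus strand: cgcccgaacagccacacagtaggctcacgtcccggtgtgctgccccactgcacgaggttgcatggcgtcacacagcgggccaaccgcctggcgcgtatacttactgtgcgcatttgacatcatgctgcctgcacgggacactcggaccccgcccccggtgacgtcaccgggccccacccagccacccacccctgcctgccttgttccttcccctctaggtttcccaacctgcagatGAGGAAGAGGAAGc
Csf2rb2, chr15:78305722-78305971, minus strand: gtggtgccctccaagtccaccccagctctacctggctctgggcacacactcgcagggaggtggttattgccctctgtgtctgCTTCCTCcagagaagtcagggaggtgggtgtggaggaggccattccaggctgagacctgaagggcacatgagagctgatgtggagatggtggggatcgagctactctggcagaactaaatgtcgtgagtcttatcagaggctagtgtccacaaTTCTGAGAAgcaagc
Csf3r, chr4:126024409-126024658, plus strand: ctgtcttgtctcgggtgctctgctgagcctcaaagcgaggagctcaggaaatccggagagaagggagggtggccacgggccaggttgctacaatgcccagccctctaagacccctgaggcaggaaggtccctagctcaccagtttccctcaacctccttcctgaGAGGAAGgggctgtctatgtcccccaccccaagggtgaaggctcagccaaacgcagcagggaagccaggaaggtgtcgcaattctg
A match describes letters only. Of the 3 genes Csf2ra did not pass the threshold, and Csf2rb2 and Csf3r fell.

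With TMM factors the CSF-1 axis went the other way from Csf2rb and Csf2rb2. Csf1r had 879, 884 and 769 CPM with 4-OI, against 714, 646 and 670.2 CPM with IFN-γ alone. The groups did not overlap, with 4-OI replicate 3 closest to the other group, and Csf1r rose by 1.25-fold (log2 fold change 0.32 ± 0.10 SE; adjusted p from edgeR = 0.0270). The call was lost without IFN-γ replicate 2 (adjusted p from edgeR = 0.0813) or replicate 3 (adjusted p from edgeR = 0.0813), without 4-OI replicate 1 (adjusted p from edgeR = 0.101) or replicate 2 (adjusted p from edgeR = 0.107), and with total-count scaling. Csf1r spans chromosome 18, 61238644 to 61264211, on the plus strand.

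Csf1, the gene of its ligand, had 159.9, 163 and 144 CPM with 4-OI, against 116, 102 and 105 CPM with IFN-γ alone. Every library with 4-OI was higher, and Csf1 rose by 1.45-fold (log2 fold change 0.53 ± 0.09 SE; adjusted p from edgeR = 0.00162), which total-count scaling did not keep past the threshold. Csf1 spans chromosome 3, 107648364 to 107668048, on the minus strand. The gene of the other CSF1R ligand, Il34, had 0 counts with 4-OI and 3 with IFN-γ alone. The TPM of Csf2ra was 0.0642, 0.0672 and 0.0660 of that of Csf1r with 4-OI, against 0.0630, 0.0765 and 0.0756 with IFN-γ alone, and here the groups overlapped (difference of log2 ratios -0.12; exact permutation test, two-sided, p = 0.40). The size of this ratio also rests on the long deposited length of Csf2ra. With GENCODE transcript lengths the mean levels of Csf2ra and Csf1r were 191 and 388 with 4-OI. Without 4-OI they were 215 and 406.

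Factors that bind the Csf1r gene and macrophage genes divided, with 5 of 15 higher and 4 lower, against 22.7% and 25.4% of all genes tested. The median log2 fold change of the list was -0.12. For Spi1, the gene of PU.1, the log2 fold change was -0.04 (adjusted p from edgeR = 0.758). Cebpa, a myeloid factor, rose to 57.2 ± 4.96 CPM with 4-OI, against 22.8 ± 2.88 CPM without it (SD, n = 3 each; adjusted p from edgeR = 6.7e-05). Itgam, the integrin chain CD11b, fell to 674 ± 34.7 CPM with 4-OI, against 1417 ± 214 CPM without it. With total-count scaling 3 were higher and 7 lower, against 1719 and 5452 of all 14011 genes tested. Without 4-OI replicate 2 or without 4-OI replicate 3 the list had 3 higher and 3 lower. Its median lay between -0.18 and -0.0092 when single libraries were left out. Of 10 macrophage markers 8 were tested, of which Adgre1 and no other rose and 1 fell, against 22.7% and 25.4% of all genes tested. The macrophage markers had a summed level of 1925 to 1949 CPM with 4-OI and 1452 to 1477 CPM without it. Most of that level was Adgre1, at a mean of 1334 CPM with 4-OI and 875 CPM without it. Timd4 was at 0 in all libraries, and the part of macrophages in the Csf1r values was not tested.

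The G-CSF axis had the largest changes of the 10 genes. Csf3r had 27.2, 27.7 and 21.7 CPM with 4-OI, against 66.1, 58.1 and 54.9 CPM with IFN-γ alone. The libraries of the 2 groups lay far apart, and Csf3r fell by 2.34-fold (log2 fold change -1.22 ± 0.12 SE; adjusted p from edgeR = 1.2e-04). Csf3r spans chromosome 4, 125917241 to 125938768, on the plus strand. Of all genes tested, 13.3% had a larger fold change in either direction. Csf3, the gene of G-CSF, had 4.29, 4.05 and 4.20 CPM with 4-OI, against 9.18, 12.8 and 11.5 CPM with IFN-γ alone. It was the least abundant of the 10, from 79 to 112 counts per library with 4-OI and 232 to 376 without it. Csf3 fell by 2.67-fold (log2 fold change -1.42 ± 0.14 SE; adjusted p from edgeR = 1.3e-04), and 10.3% of genes tested had a larger change. Csf3 spans chromosome 11, 98591287 to 98594457, on the plus strand, and 22.2% of its exon bases overlap Gm38985 on the opposite strand, which had at most 3 counts in any library.

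Neutrophils and their precursors carry the G-CSF receptor. Of 12 neutrophil markers 7 fell and 2 rose, against 25.4% and 22.7% of all genes tested. The median of the list was -0.53 on the log2 scale. The log2 fold change was -3.19 for Mpo, myeloperoxidase, -2.18 for Elane, neutrophil elastase, and -2.04 for Cxcr2, a chemokine receptor, while Ly6g and S100a8 rose by 1.35 and 0.95. The call for S100a8 was lost with total-count scaling, with no filter, without IFN-γ replicate 2, 4-OI replicate 2 or 4-OI replicate 3, and without both libraries that lay apart (log2 fold change 0.44). The summed level of the list was 3954 to 4644 CPM with 4-OI and 3588 to 4323 CPM without it, ranges that overlapped. Mmp8, which did not pass, made up 1966 CPM of the mean level with 4-OI and 1952 CPM without it, and no listed marker was at 0 in every library. Their part in the fall of Csf3r was not tested. These markers were named after their values were seen.

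The chains of the IL-4 and IL-13 receptors fell modestly. Il4ra had 221, 219 and 196 CPM with 4-OI, against 251, 249.6 and 258 CPM with IFN-γ alone. The groups did not overlap, and Il4ra fell by 1.19-fold (log2 fold change -0.26 ± 0.08 SE; adjusted p from edgeR = 0.0314). The call held without IFN-γ replicate 1, and was lost without IFN-γ replicate 2 or 3 (adjusted p from edgeR = 0.0853 and 0.136), without 4-OI replicate 1, 2 or 3 (adjusted p from edgeR = 0.0747, 0.0839 and 0.0927) and with no filter (adjusted p from edgeR = 0.119). On chromosome 7 the gene spans 125151443 to 125178646, plus strand.

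Il13ra1 had 118, 110.2 and 118 CPM with 4-OI, against 171, 156 and 152 CPM with IFN-γ alone, so that all libraries with 4-OI were lower. It fell by 1.38-fold (log2 fold change -0.47 ± 0.08 SE; adjusted p from edgeR = 0.00203). On chromosome X the gene spans 35375761 to 35434915, plus strand. The TPM of Il13ra1 was 0.750, 0.708 and 0.843 of that of Il4ra with 4-OI, against 0.958, 0.878 and 0.825 with IFN-γ alone. The groups overlapped, and the ratios were not shown to differ (difference of log2 ratios -0.21; exact permutation test, two-sided, p = 0.20). The partner of Il4ra in the other receptor for IL-4, the common γ chain gene Il2rg, had a log2 fold change of -0.07 and did not pass.

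By level per length, the chains spanned a wide range and kept most of their order. TPM carries no TMM factors here, so its levels rank genes within a group and do not give the change between groups. Csf1r, which rose by TMM-scaled counts, had 387 TPM with 4-OI and 406 TPM without it. In deposited TPM, Csf2rb was highest in each group, then Csf2rb2, Csf1r and Il4ra, and Csf3 was lowest. With 4-OI the ranges of Csf2rb2 and Csf1r overlapped, at 350.0 to 444 and 315 to 425 TPM, and Csf1 and Il13ra1 overlapped as well, at 47.5 to 62.9 and 50.2 to 59.0 TPM. The range of Il4ra with 4-OI, 59.6 to 78.6 TPM, overlapped that of Csf1 too. With IFN-γ alone Il4ra and Il13ra1 overlapped, at 102 to 126 and 89.1 to 121 TPM, as did Csf3r and Csf2ra, at 25.3 to 36.3 and 27.1 to 30.4 TPM. Csf3r stood above Il3ra with IFN-γ alone, at 29.1 ± 6.20 and 15.7 ± 0.645 TPM, and below it with 4-OI, at 9.55 ± 2.02 and 14.9 ± 0.779 TPM (SD, n = 3 each). With GENCODE transcript lengths, Csf2ra moved to rank 4 in both groups, at 191 ± 30.9 with 4-OI and 215 ± 12.5 without it.

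**Figure D4:**
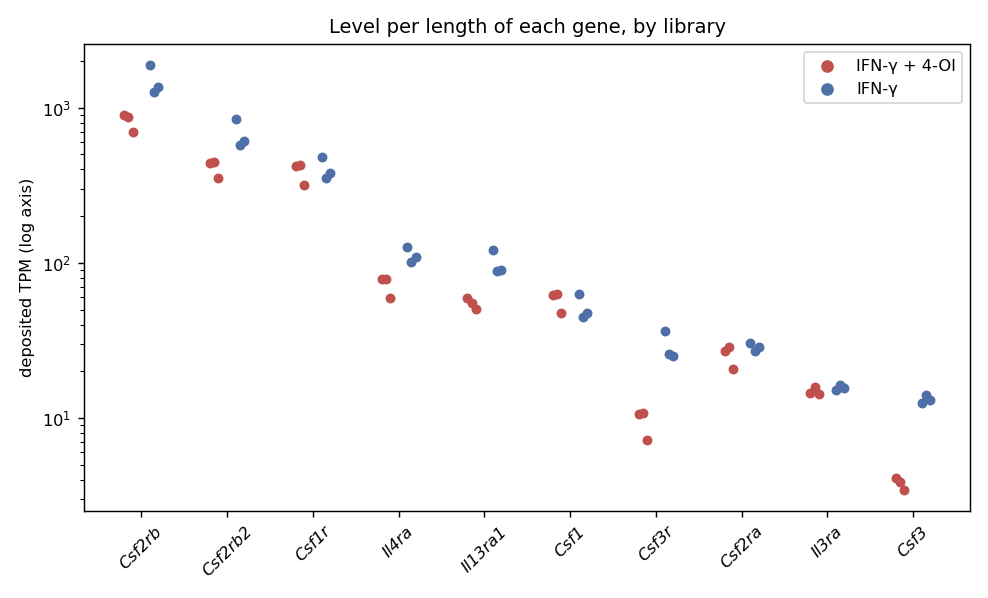
Deposited TPM of each gene by library on a log axis, IFN-γ with 4-OI in red at the left of each pair and IFN-γ alone in blue. Csf2rb led both groups, from 694 to 891 TPM with 4-OI and from 1269 to 1876 TPM without it. TPM carries no TMM factors, so the levels compare genes within a group and not the groups.

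Little or no RNA was counted for the other ligands of these receptors, from Csf2, Il3, Il5, Il4, Il13 and Il34. Csf2, the gene of GM-CSF itself, had 1 count over the 3 libraries with 4-OI and 11 over those with IFN-γ alone, in cultures given GM-CSF as protein. Il3 and Il5 had 0 counts in every library, where 3 counts, the limit a count of 0 allows, correspond to 0.103 to 0.153 CPM of the total counts. This limit covers counting error only. Il4 had 11 counts over the libraries with 4-OI and 86 over those without, at 0.150 ± 0.0589 and 1.10 ± 0.458 CPM (SD, n = 3 each), and fell (log2 fold change -2.78 ± 0.48 SE; adjusted p from edgeR = 0.00194). Il13 fell to 0.650 ± 0.286 CPM with 4-OI, against 1.90 ± 0.208 CPM without it (adjusted p from edgeR = 0.00509). Both are made by basophils and mast cells, whose markers fell as given above, and the part of those cells was not tested. The list of 9 other ligands also held Flt3l, Kitl and Tslp, whose receptors are not among those described here. Of the 9 only 4 had enough counts to be tested, of which 3 fell, against 25.4% of all genes tested. Among them Flt3l, the dendritic cell growth factor, fell by 1.44-fold (adjusted p from edgeR = 0.0049). It stood at 8.32 to 8.63 CPM with 4-OI and 11.1 to 13.7 CPM without it.

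Other cytokine receptor chains fell in 8 of 13 tested cases, and 1, the TSLP receptor gene Crlf2, rose. Of all genes tested 25.4% fell and 22.7% rose. The median log2 fold change of these chains was -0.70. Crlf2 was named after its values were seen, and its call was lost with total-count scaling (log2 fold change 0.27; adjusted p from edgeR = 0.0546). Il2ra, the IL-2 receptor α chain, fell to 47.3 ± 1.46 CPM with 4-OI, against 257.5 ± 19.8 CPM without it (SD, n = 3 each), a 5.44-fold fall. Il15ra, the IL-15 receptor α chain, fell by 3.35-fold and Kit, the stem cell factor receptor of mast cells and progenitors, by 2.21-fold.

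Downstream of the receptors, 10 of 20 signalling genes fell and 2 rose (Stat3 and Sos1, named after their values were seen). The 12 of 20 that passed are read against the 48.1% of all genes tested. With total-count scaling 14 of the 20 fell and none rose, against 5452 and 1719 of all 14011 genes tested. Leaving out any 1 of the 3 libraries with 4-OI left 6 that fell, and leaving out IFN-γ replicate 3 left 7. Sos1 was not past the threshold without 4-OI replicate 1 (adjusted p from edgeR = 0.0533) or 4-OI replicate 3 (adjusted p from edgeR = 0.0552). The median of the list was -0.22 on the log2 scale. Jak2, the kinase that the β chain carries, had 498, 471 and 473 CPM with 4-OI, against 1019, 830.2 and 834 CPM with IFN-γ alone. The groups stood well apart, and Jak2 fell by 1.86-fold (log2 fold change -0.90 ± 0.11 SE; adjusted p from edgeR = 3.1e-04). Stat5a, the transcription factor it activates, fell by 1.78-fold (adjusted p from edgeR = 6.3e-05), to 66.2 ± 0.722 CPM with 4-OI, against 118 ± 4.30 CPM without it. Ptpn6, the phosphatase SHP-1 that dampens receptor signals, fell by 1.74-fold (adjusted p from edgeR = 2.5e-04). Stat6, the factor of IL-4 signals, did not pass, at 0.02 on the log2 scale (adjusted p from edgeR = 0.850). Jak2 and Ptpn6 also act downstream of receptors other than those described here.

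STAT5 feedback and target genes fell in 10 of 14 cases and rose in 1, Mcl1, against 25.4% and 22.7% of all genes tested. The median of the list was -0.82 on the log2 scale. The 3 with the smallest adjusted p were Myc, a transcription factor of cell growth, which fell by 5.40-fold, Socs3, a suppressor of cytokine signals, by 2.83-fold, and the cyclin gene Ccnd2, by 3.83-fold (adjusted p from edgeR = 2.3e-06, 7.2e-06 and 1.7e-05). Cish, a feedback inhibitor that STAT5 induces, had 144, 144 and 130.4 CPM with 4-OI, against 299.8, 298 and 301 CPM with IFN-γ alone. It fell with a log2 fold change of -1.10 ± 0.08 (SE; adjusted p from edgeR = 2.1e-05), and Socs2 with one of -0.80. Cish, Socs2 and Mcl1 were named after their values were seen, and the call for Mcl1 was lost with total-count scaling (0.045 on the log2 scale), with upper quartile scaling, with no filter and without any single library other than IFN-γ replicate 1. Cytokines that do not act through STAT5 can also raise Socs3.

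Genes responsive to IL-4 and STAT6 fell in 13 of 18 tested cases and rose in 2, against 25.4% and 22.7% of all genes tested. The median of the list was -1.03 on the log2 scale. Arg1, arginase 1, fell to 9.76 ± 0.156 CPM with 4-OI, against 64.2 ± 8.65 CPM without it. Mgl2, a C-type lectin, fell by 4.95-fold and Alox15, a lipoxygenase, by 3.12-fold. The 2 that rose were Tgm2 and Egr2, with log2 fold changes of 0.62 each, named after their values were seen. IFN-γ, GM-CSF and other signals act on several of these genes too.

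Genes that depend on GM-CSF in myeloid cells were divided, 4 of 14 rising and 6 falling, against 22.7% and 25.4% of all genes tested. With total-count scaling 3 rose and 8 fell, against 1719 and 5452 of all 14011 genes tested. The median with TMM factors was -0.13 on the log2 scale. Cd36, a scavenger receptor, rose to 701 ± 25.9 CPM with 4-OI, against 51.0 ± 6.26 CPM without it, whereas Pparg, the nuclear receptor that GM-CSF induces in alveolar macrophages, fell by 3.79-fold. Car4, a carbonic anhydrase, fell to 60.4 ± 9.36 CPM with 4-OI, against 357 ± 51.1 CPM without it. These lists share members, were put together with earlier results of these data known and hold genes that many other signals control.

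**Figure D5:**
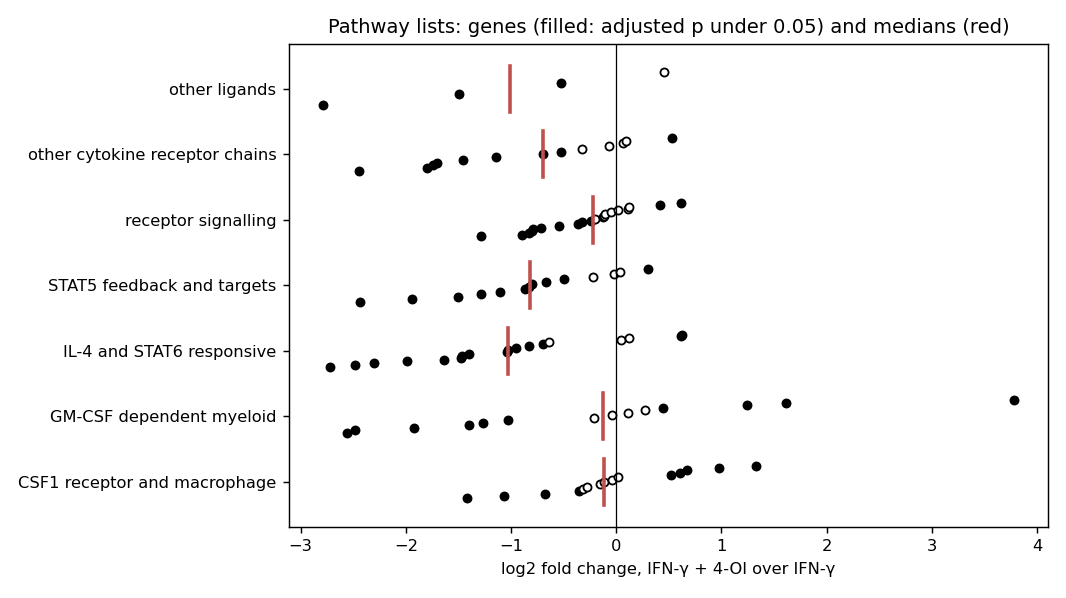
Log2 fold change, IFN-γ with 4-OI over IFN-γ, of each tested gene in the 7 lists around the receptors; filled points have an adjusted p under 0.05 and red lines are list medians. The medians of the STAT5 and of the IL-4 and STAT6 lists lie at -0.82 and -1.03, and that of the GM-CSF dependent list at -0.13 with genes on both sides.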

How the data were processed

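Each sample has its own table, deposited by the authors, of read counts, TPM and FPKM for every gene, per the file headers. The submitters' processing notes name the aligner HISAT2 and the build mm10. The counter, whether it used strand, and the gene models are not given in the sources consulted. The kit was stranded, per the labels' protocols. The deposited TPM and FPKM were recomputed from counts and gene lengths, and 100% of values matched (relative tolerance 1e-06). None of the 10 genes shared a start or an end with RefSeq's GRCm38 table. The Csf2rb coding bases shown lie between 78335207 and 78340471 on GRCm38, outside its deposited span of 78210000 to 78235201. Gene positions are printed as deposited and are not those of mm10, and only sequences carry GRCm38 coordinates.

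Deposited counts were used as they stand with edgeR 4.0.16 in R 4.3.3: filterByExpr with a minimum count of 10, TMM factors, the robust quasi-likelihood test and Benjamini-Hochberg adjustment over all genes tested. The script was tested on simulated data with 200 changed genes, balanced between directions, a setting that cannot test the choice of scaling. TPM served for levels between genes and for within-library ratios, compared by exact permutation. Alternatives were other scalings and filters, limma-voom (limma 3.58.1), DESeq2 1.42.0, the replicate block, summed paralogs, and each library left out. Leaving out both libraries that lay apart was added after the data had been seen.

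Replicates were not copies (lowest chi-square per gene 4.36). The 10 genes and all lists were chosen with earlier results of these data known. Named genes are the 10, 6 ligands, and the 3 of each list with the smallest adjusted p; others are marked as named after their values were seen, marker genes included, as are Spi1, Stat6 and Il2rg. A gene that this rule names is not reported here.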

Additional observations from a re-analysis of the deposited data

How the results depend on the processing

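Csf2rb, Csf3r, Csf3 and Il13ra1 kept their direction and stayed past 0.05 under every alternative run for them, as did the named list genes. With total-count scaling Csf2ra turned to -0.055 on the log2 scale, and Csf1r (0.062) and Csf1 (0.28) no longer passed. With no filter Csf2rb2 (-0.31) and Il4ra (-0.24) no longer passed. Without both libraries that lay apart Csf2ra passed at 0.21. Without single libraries the log2 fold changes were -0.36 to -0.24 for Csf2rb2, 0.29 to 0.39 for Csf1r, -0.28 to -0.20 for Il4ra and 0.18 to 0.40 for Il3ra, with calls lost for the first 3 and gained for Il3ra as given with each gene. The cause was not tested, though fewer libraries also leave a weaker test.

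Of the 10 genes, 8 passed, and 5 to 8 did without single libraries: 5 without IFN-γ replicate 3, 4-OI replicate 1 or 4-OI replicate 2. In those fits, in that order, 5744 of 14364, 5539 of 14483 and 5275 of 14108 of all genes tested passed. With all libraries 6736 of 14011 did. At an adjusted p of 0.01, 5 of the 10 genes passed, and 4561 of all 14011 genes tested. With the replicate block 9 passed, Il3ra (0.30) being the gene gained. Deviations of same-numbered libraries from their group means correlated at 0.26, -0.10 and 0.19, so the numbers were not taken to pair libraries, and 1 of 3 libraries with 4-OI correlated best with its own number. The block moved the count of all changed genes to 7513 from 6736. All 5 ratios kept their direction under every alternative run. Depth limits Il4, with 11 counts over the libraries with 4-OI, and left Csf2, Il3, Il5 and Il34 untested.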
